A study of Mus musculus with 4 samples.

Results

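FGF receptor and FGF signalling readout genes of the mouse prostate were followed by single-cell RNA sequencing of epithelial cells. The 9 genes, of 31053 in each matrix, were chosen by name: the receptors Fgfr1, Fgfr2 and Fgfr3, the feedback inhibitors Spry1, Spry2 and Spry4, the phosphatase Dusp6 and the transcription factors Etv4 and Etv5. All 9 had UMIs (unique molecular identifiers, 1 for each captured transcript) in each of the 4 matrices, and each is described below by explant day and by adult lobe, RFP gate, treatment and compartment. All mice were of the ICR (CD-1) strain. The adults were P2-Runx1:RFP animals, in which the proximal P2 promoter of Runx1 drives a red fluorescent protein, and their EPCAM+ cells were sorted as RFP+ or RFP-, whereas the labels name no reporter for the explants, whose cells were sorted as EPCAM+. The adults, over 8 weeks old, were sampled in 3 runs: 4 intact and 4 castrated mice in run 1, 3 intact and 5 castrated mice in run 2, and 4 intact mice in run 3. Castrated mice were taken over 4 weeks after surgery. Anterior (AP), dorsolateral (DLP) and ventral (VP) prostate carried separate MULTI-seq barcode oligos, except in castrated mice of run 1, where they shared one. Urogenital sinuses taken at E15.5 were dissociated at that stage (day 0) or after 1, 3 or 6 days in culture with 10 µM dihydrotestosterone. Days 0, 1, 3 and 6 had 8, 10, 7 and 8 explants from 1, 2, 1 and 2 litters. Each day was 1 pool holding both sexes, so that the days had no replicate.

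Fibroblast growth factors bind receptor tyrosine kinases at the cell surface and, through RAS and the MAP kinases ERK1 and ERK2, induce a set of early target genes. Etv4 and Etv5 encode ETS transcription factors of the PEA3 group, Dusp6 a phosphatase that removes the activating phosphates from ERK, and the Spry genes Sprouty proteins that restrain signalling upstream of ERK. Transcripts of these genes are widely used as readouts of FGF signalling, although other receptor tyrosine kinases also induce them. In the developing prostate, mesenchymal FGF10 acts on the epithelial receptor encoded by Fgfr2 and is required for budding and branching.

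On GRCm38.p6 (RefSeq), whole-gene spans were chromosome 8, 25518759 to 25575718 for Fgfr1, chromosome 7, 130162451 to 130266808 for Fgfr2, chromosome 5, 33721724 to 33737068 for Fgfr3, chromosome 3, 37639947 to 37644599 for Spry1, chromosome 14, 105891947 to 105896819 for Spry2, chromosome 10, 99263231 to 99267489 for Dusp6, chromosome 11, 101769747 to 101785310 for Etv4 and chromosome 16, 22381313 to 22439570 for Etv5. The 250 bases before the start site were read for the members that RefSeq promoter windows covered (6 of 9, in 8 windows), to look on both strands for the letters CGGAAG, an ETS-type core. They were found in 1 window, that of Dusp6, and in 13.59% of 32851 promoters of this length, so that a match by itself distinguishes no gene. The Dusp6 window (chr10:99262981-99263230, + strand) and 1 window of Etv5 (chr16:22439571-22439820, - strand) are shown 5′ to 3′. Both genes had higher levels in the explants from day 1, Dusp6 by less than 2-fold on day 1. The match, which lies on the opposite strand, is in capitals. The Etv5 window shown holds none, nor does its other window (chr16:22438369-22438618, - strand).
Dusp6: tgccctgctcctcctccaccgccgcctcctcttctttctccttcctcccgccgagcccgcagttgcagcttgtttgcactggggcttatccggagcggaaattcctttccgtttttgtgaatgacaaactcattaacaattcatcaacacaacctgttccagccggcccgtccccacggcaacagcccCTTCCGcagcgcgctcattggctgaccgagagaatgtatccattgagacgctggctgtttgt
Etv5: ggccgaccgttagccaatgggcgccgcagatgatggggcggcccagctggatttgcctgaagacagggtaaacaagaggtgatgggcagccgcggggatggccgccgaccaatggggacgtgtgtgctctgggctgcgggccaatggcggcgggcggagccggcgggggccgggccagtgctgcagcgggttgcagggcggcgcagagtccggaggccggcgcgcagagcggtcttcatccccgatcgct

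In the adult libraries 2612, 6034 and 3028 cells were deposited for runs 1, 2 and 3, of which 824, 2194 and 1673 passed the quality filters and carried 1 barcode. The explant library held 7474 cells, of which 5198 were used. Median UMIs per cell were 13055, 10618.5, 9750.0 and 14784.5, and no pair of libraries shared more than 2 cell barcodes. Clusters were called basal-like or luminal-like from keratin and other markers, with the FGF genes left out of the clustering. In intact sums of basal-like cells the 6 basal markers summed to 8592 CPM or more, against at most 2866 CPM in luminal-like sums. Levels are given as CPM, the UMIs of a gene per 1000000 UMIs summed over the cells of a population, and the transgene was not among the genes counted. Because the libraries read the 3′ end of each transcript, a CPM counts transcripts and is not scaled by gene length.

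Of the basal-like and luminal-like compartments of the intact prostate, the basal-like held the higher levels of most FGF readout transcripts. Over all lobes and gates, Dusp6 was at 185, 419.6 and 367 CPM in basal-like cells of runs 1, 2 and 3, against 12.1, 9.95 and 9.21 CPM in luminal-like cells. Etv4 was at 33.9, 26.7 and 31.2 CPM against 0.778, 0.275 and 0.326 CPM. In both genes the lowest basal-like run lay far above the highest luminal-like run. Etv5 was sparse in both compartments, at 2.20, 3.78 and 5.10 CPM in basal-like cells. With edgeR's quasi-likelihood test on sums per run and Benjamini-Hochberg adjustment, 8 of 9 members were higher in basal-like cells, where 22.7% of all genes tested were called higher and 45.1% were called in either direction. The log2 fold change was 5.59 ± 0.27 (SE, n = 3 runs in each group) for Etv4 (edgeR, adjusted p = 3.65e-05), 4.42 ± 0.40 for Dusp6 (adjusted p = 0.00020), 4.26 ± 0.51 for Spry4 (adjusted p = 0.00060), 3.58 ± 0.21 for Fgfr1 (adjusted p = 4.3e-05) and 3.01 ± 0.38 for Fgfr2 (adjusted p = 0.00071). Luminal-like sums of runs 1, 2 and 3 held only 7, 5 and 5 UMIs of Etv4, 5, 9 and 21 of Spry4 and 15, 4 and 10 of Etv5. These genes passed the filter on low counts through basal-like cells, so the sizes of their fold changes are uncertain. Spry1 (2.31 ± 0.44), Spry2 (1.42 ± 0.26) and Etv5 (1.82 ± 0.61) were smaller differences, and Fgfr3 was not called, at 0.30 ± 0.62 (adjusted p = 0.73). Without run 2 the calls of Spry1 and Etv5 were lost, without run 3 those of Spry2 and Etv5, with high Scrublet scores removed that of Etv5 (1.81, adjusted p = 0.052), with fewer than 7500 UMIs per cell that of Spry2 (0.77, adjusted p = 0.29), and without run 1 Fgfr3 was called higher, at 1.30. The median over the 9 members was 3.01 on the log2 scale, against -0.0047 over all genes.

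The same comparison within 1 lobe and 1 gate, AP RFP+ cells, held the mix of lobes constant. Fgfr2, the receptor of epithelial FGF10 signalling, was at 167, 126 and 94.0 CPM in basal-like cells of runs 1, 2 and 3, and at 46.5, 33.1 and 32.1 CPM in luminal-like cells. Fgfr3 went the other way, with 16.4, 16.2 and 11.3 CPM in basal-like cells and 38.9, 23.3 and 16.9 CPM in luminal-like cells. The lowest luminal-like value of Fgfr3, in run 3, was close to the highest basal-like values, and in each run the luminal-like cells were the higher. Of 8 members tested, 6 were higher in basal-like cells and 1, Fgfr3, was lower (all genes: 29.1% called, 14.8% higher and 14.3% lower). Log2 fold changes of the higher members ran from 1.79 ± 0.20 for Fgfr2 (adjusted p = 0.00020) to 3.94 ± 0.43 for Etv4 (adjusted p = 0.00020), with 3.54 ± 0.44 for Spry4, 3.21 ± 0.49 for Dusp6, 2.92 ± 0.36 for Fgfr1 and 2.60 ± 0.50 for Spry1. The sizes for Etv4 and Spry4 are again uncertain. Intact luminal-like cells of all lobes and gates held only 7, 5 and 5 UMIs of Etv4 and 5, 9 and 21 of Spry4. Both genes passed the filter on low counts through basal-like cells. Spry2, at 29.8, 28.4 and 29.6 CPM against 26.0, 17.1 and 18.5 CPM, was not called (0.52 ± 0.20, adjusted p = 0.082). Fgfr3 was lower by the same edgeR test (-0.85 ± 0.28, adjusted p = 0.047), a call that was lost with DESeq2, without TMM scaling, with the FGF genes kept in the clustering and when any 1 of the 3 runs was left out. Etv5 was too sparse to test, at 2.24 CPM on average in basal-like and 2.62 CPM in luminal-like cells.

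**Figure D1:**
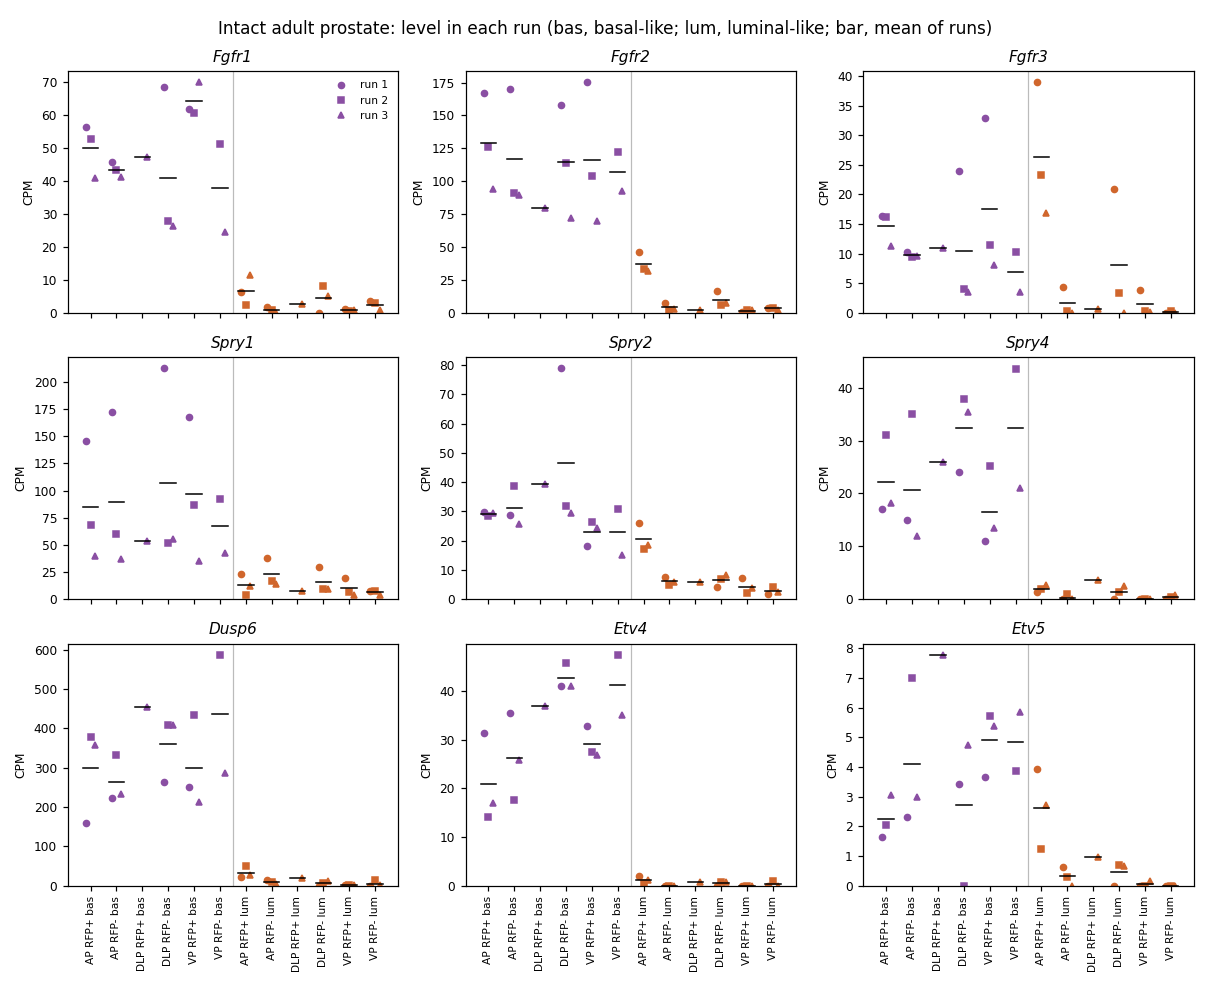
Level of each member in the intact adult prostate, in CPM (vertical axis, from 0), by lobe, RFP gate and compartment (horizontal axis), with 1 point for each run and a bar at their mean. Purple points are basal-like and orange points luminal-like cells, Dusp6 and Etv4 were high in every basal-like population, and Fgfr3 was also high in AP RFP+ luminal-like cells, at 16.9 to 38.9 CPM.

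Other genes of the FGF pathway (a list of 84 ligands, coreceptors, sulfation enzymes, adaptors and targets) were counted in the same comparisons. In AP RFP+ cells 23 of 50 tested were higher and 6 lower in basal-like cells (all genes: 14.8% higher and 14.3% lower). Their median log2 fold change was 0.48, against 2.76 for the members. The largest differences were those of Sulf1, a heparan sulfate endosulfatase (5.05 ± 0.59), Gpc3, a glypican (4.34 ± 0.47), Hspg2, the perlecan core protein (3.82 ± 0.64), and Dusp7, another ERK phosphatase (3.22 ± 0.52). Across all lobes 29 of 55 were higher and 5 lower (all genes: 45.1% called, 22.7% higher).

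The RFP gate separated Fgfr2 and Fgfr3 within luminal-like cells of the anterior lobe, while Fgfr1, Spry4, Etv4 and Etv5 did not pass the filter on low counts. Fgfr2 was at 46.5, 33.1 and 32.1 CPM in AP RFP+ luminal-like cells of runs 1, 2 and 3, and at 7.59, 2.41 and 2.86 CPM in AP RFP- luminal-like cells. Fgfr3 was at 38.9, 23.3 and 16.9 CPM in the RFP+ gate, and at 4.43, 0.301 and 0 CPM in the RFP- gate. For both receptors the gates did not overlap. The Sprouty gene Spry2 was at 26.0, 17.1 and 18.5 CPM in RFP+ and 7.59, 4.82 and 5.72 CPM in RFP- cells. Dusp6 was at 22.7, 48.99 and 27.2 CPM against 13.3, 9.34 and 4.29 CPM, again without overlap. Among the members tested Spry1 was the exception, with lower RFP+ values in each run (23.5, 3.67 and 12.5 CPM against 38.0, 17.2 and 14.3 CPM) and gates that overlapped across runs.

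Of 5 members tested in this comparison, 4 were higher in RFP+ luminal-like cells (all genes: 25.4% called, 13.6% higher). Log2 fold changes were 3.95 ± 0.63 for Fgfr3 (edgeR, adjusted p = 0.0022), 3.01 ± 0.34 for Fgfr2 (adjusted p = 0.00051), 1.64 ± 0.26 for Spry2 (adjusted p = 0.0021) and 1.61 ± 0.45 for Dusp6 (adjusted p = 0.026). Spry1 was not called (-0.92 ± 0.46, adjusted p = 0.18), but was called lower by edgeR with the run as a block (-1.07, adjusted p = 0.015) and with no filter on low counts (-0.94, adjusted p = 0.024). Dusp6 was no longer called without run 2, without run 3 or with the FGF genes kept in the clustering (1.01, adjusted p = 0.16), and Spry2 was no longer called without run 2 (adjusted p = 0.056). Etv4 had no UMI in AP RFP- luminal-like cells of any run and at most 1.96 CPM in RFP+ cells, beside 2.40 and 0.936 CPM (1 and 3 UMIs) in hematopoietic-like cells of runs 1 and 2. Fgfr2 and Dusp6 in those cells were at 2.40 and 5.93 CPM (1 and 19 UMIs) and at 9.58 and 19.7 CPM (4 and 63 UMIs), and the RFP- values of both genes were near these. Background RNA was not estimated. Fgfr3 had no UMI in RFP- cells of run 3 and passed the filter on low counts through RFP+ cells, so the size of its fold change is uncertain. The 6 basal markers summed to 2866, 1567 and 1137 CPM in RFP+ and to 765, 219.6 and 35.7 CPM in RFP- luminal-like cells (all 6 detected except in run 3 RFP- cells, with 4), and their part in these differences was not tested.

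Most AP RFP+ luminal-like cells belonged to 1 luminal population, Lum-D (86.7, 81.6 and 89.0%), and most AP RFP- cells to another, Lum-B (88.3, 82.6 and 93.3%). These names follow marker lists that the study drew from these same samples, so the populations are not independent of them. Over all lobes and gates, Lum-D cells held Fgfr2 at 49.97, 45.1 and 38.0 CPM and Fgfr3 at 48.4, 40.5 and 19.0 CPM. Lum-B cells held Fgfr2 at 10.2, 3.85 and 3.33 CPM, and the ventral population Lum-A at 0.588, 2.45 and 1.26 CPM. The order for Fgfr2, Lum-D above Lum-B and Lum-B above Lum-A, was the same in each run. Spry1 was at 50.6, 19.6 and 13.3 CPM in Lum-B cells and at 15.3, 4.60 and 15.54 CPM in Lum-D cells, higher in Lum-B in runs 1 and 2 and lower in run 3. Within the AP RFP+ gate of run 1, the 182 Lum-D cells held Fgfr3 at 47.4 CPM and the 24 Lum-B cells at 1.60 CPM, and Fgfr2 was at 52.0 and 28.8 CPM. Within Lum-B cells of the same lobe and run, Fgfr2 was at 28.8 (17.1 to 45.6, 95% Poisson interval) CPM in the 24 RFP+ cells and at 3.72 (1.21 to 8.69) CPM in the 68 RFP- cells, while Fgfr3 had 1 UMI in each. These values of run 1 were not tested, and runs 2 and 3 held only 7 and 9 Lum-B cells in the AP RFP+ gate. The gate and the population cannot be told apart in the tested comparison.

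Of the other pathway genes, 15 of 43 were higher and 3 lower in AP RFP+ luminal-like cells (all genes: 25.4% called, 13.6% higher). Those higher included Phlda1 (log2 fold change 3.07 ± 0.43, SE), the PEA3-group factor Etv1 (2.63 ± 0.80) and Flrt3, an FGF receptor-interacting membrane protein (2.36 ± 0.67).

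In the ventral lobe 2 members, Spry1 and Spry2, passed the filter on low counts, and no receptor did. Fgfr2 was at 0.710, 2.07 and 2.02 CPM in VP RFP+ and at 3.61, 3.88 and 2.45 CPM in VP RFP- luminal-like cells. Spry1 (0.47 ± 0.60, adjusted p = 0.99) and Spry2 (0.19 ± 0.55, adjusted p = 0.9995) were not called by edgeR, in a comparison with 0.327% of genes called. The 2 gates also held different populations, with Lum-A at 86.3, 94.0 and 94.5% of VP RFP+ cells and at 50, 68.2 and 62.2% of VP RFP- cells, which held Lum-C at 20, 30.3 and 33.3%. The difference between the AP and VP gate effects was fitted over the 4 groups, where 5.64% of all genes were called. Fgfr2, Fgfr3 and Dusp6, which did not pass the filter in VP alone, entered it through other groups. For Fgfr2 the difference was 3.92 ± 0.61 log2 units (adjusted p = 0.0038), but its VP sums held only 2 to 18 UMIs, so that no gate effect in VP is read from it. This call was lost without run 2 (3.51, adjusted p = 0.23) and without run 3 (4.15, adjusted p = 0.063). Dusp6 just missed the threshold (3.20 ± 0.88, adjusted p = 0.051) and was called with the run as a block (3.18, adjusted p = 0.0085). Without run 2 the edgeR estimate for Dusp6 changed sign, to -0.59 (adjusted p = 0.94). Spry2 (1.45 ± 0.61), Spry1 (-1.39 ± 0.84) and Fgfr3 (1.92 ± 3.27) were not called. In the other list 4 of 46 genes had a larger effect in AP, namely Ccnd1, encoding cyclin D1 (3.86 ± 0.43), Sdc1, encoding syndecan-1 (3.15 ± 0.61), Phlda1 (2.43 ± 0.49) and Spred1, encoding an inhibitor related to Sprouty (2.26 ± 0.61).

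In the 2 comparisons tested among basal-like cells, the gate in AP and VP against AP in RFP+ cells, no member passed the threshold. In AP, Dusp6 was at 159, 377 and 358 CPM in RFP+ and 221, 333 and 232 CPM in RFP- basal-like cells. Etv4 was at 31.4, 14.2 and 17.0 CPM against 35.6, 17.5 and 25.8 CPM, and Fgfr1 at 56.3, 52.7 and 40.9 CPM against 45.9, 43.2 and 41.3 CPM. For each of these genes the gates overlapped. The 8 log2 fold changes ran from -0.33 ± 0.32 for Etv4 to 0.54 ± 0.28 for Fgfr3. The edgeR test called 0 of 8621 genes (0%), although 98 had an unadjusted p under 0.05. DESeq2 called 1 and the fit with the run as a block called 23, none of them a member. In RFP+ basal-like cells of VP against AP, 8 members were tested and 0 called (0.267% of all genes), with log2 fold changes from -0.25 ± 0.29 for Spry2 to 0.48 ± 0.33 for Etv4. Hematopoietic markers summed to 128, 869.9 and 1.30 CPM in AP RFP+ basal-like cells and to at most 8.18 CPM in the RFP- gate, and their part was not tested.

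Runs also differed among themselves. In AP RFP+ basal-like cells Spry1 was at 146 CPM in run 1, 68.2 CPM in run 2 and 39.6 CPM in run 3, and Dusp6 was lowest in run 1. DLP RFP- basal-like cells held Dusp6 at 264, 408.3 and 408.0 CPM and Etv4 at 41.1, 45.8 and 41.0 CPM, both higher than in AP RFP- basal-like cells of the same run, and for Etv4 without overlap, a difference that was not tested. In the DLP RFP+ gate, barcoded in run 3 only, Dusp6 was at 455 CPM and Etv4 at 36.9 CPM.

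**Figure D2:**
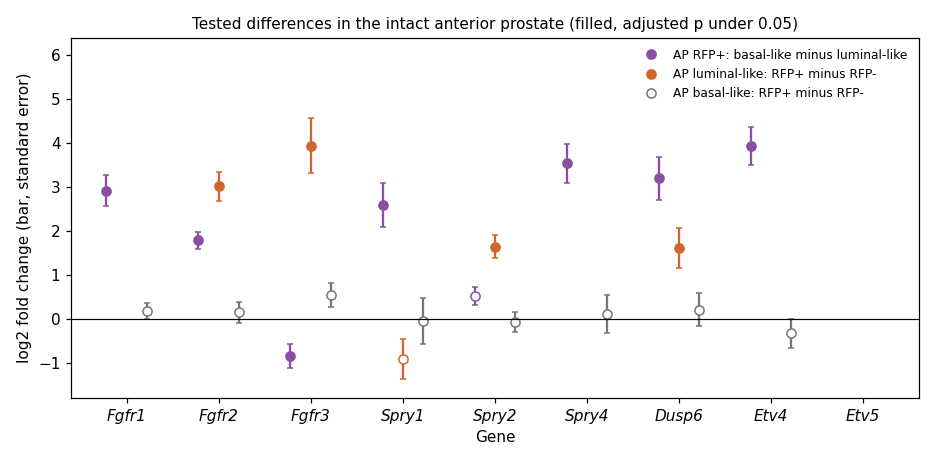
Log2 fold change (vertical axis, bars for the standard error, n = 3 runs in each group) of each member tested in 3 comparisons of the intact anterior prostate, with filled points for an edgeR adjusted p under 0.05. Fgfr3 lay below 0 for basal-like against luminal-like cells (-0.85) and at 3.95 for RFP+ against RFP- luminal-like cells, and the gate left basal-like cells between -0.33 and 0.54. The value of 3.95 rests on few UMIs in RFP- cells.

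Lobe differences among RFP- luminal-like cells were not called for any member tested. In DLP against AP, 4 members were tested and 0 called (0.776% of all genes). Fgfr2 was at 16.7, 6.16 and 7.10 CPM in DLP and at 7.59, 2.41 and 2.86 CPM in AP, higher in each run but not called (1.16 ± 0.50, adjusted p = 0.46). In VP against AP 2 were tested and 0 called (15.8%). Spry1 was at 7.21, 7.11 and 4.08 CPM in VP and 38.0, 17.2 and 14.3 CPM in AP, without overlap (-0.91 ± 0.39, adjusted p = 0.15). The lobes held different luminal populations, AP RFP- cells being mostly Lum-B, VP RFP- cells mostly Lum-A and Lum-C with at most 4.44% Lum-B, and DLP RFP- cells Lum-B at 60.0, 54.5 and 74.3% with 32.0% Lum-D in run 1, so lobe and population cannot be told apart. With library sizes alone in place of TMM scaling, the median of all genes moved to -1.03 and Spry1 was called lower (-1.93, adjusted p = 0.0038), while Dusp6 turned from 0.55 ± 0.64 to -0.47. Of the other list, 4 of 36 genes were higher and 3 lower in VP, and 1 of 39, Flrt3 (3.17 ± 0.53), was higher in DLP.

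Castrated populations could be matched to intact ones by lobe in run 2 alone, so each value is 1 pool and no test was possible. A difference was named where it was at least 2-fold and the exact 95% Poisson intervals, which cover counting error only, did not overlap. In basal-like cells Dusp6 stood at 380.1 CPM in castrated and 377 CPM in intact AP RFP+ cells, and at 437 and 434 CPM in VP RFP+ cells. Spry2 was higher in castrated basal-like cells of both lobes, at 59.6 (47.3 to 74.2) against 28.4 (20.4 to 38.3) CPM in AP and at 75.8 against 26.3 CPM in VP. Spry1 was lower in AP (26.1 against 68.2 CPM) and Etv4 lower in VP (4.33 against 27.4 CPM, from 2 and 24 UMIs). Thus 2 of 8 members with enough UMIs passed in AP (8.45% of all genes) and 2 of 7 in VP (9.2%). By per-cell mean CPM Spry2 no longer passed in AP, after centring on the median of all genes Etv4 no longer passed in VP, and with fewer than 7500 UMIs per cell none passed in either lobe. Etv4 in AP, at 4.47 (1.64 to 9.73) against 14.2 (8.78 to 21.7) CPM, and Spry4, at 50.7 against 31.1 CPM, did not pass. The median log2 ratio of all genes was -0.31 in AP and -0.22 in VP. The basal-like sums also differed in markers, castrated against intact. Basal markers summed to 7686 against 9864 CPM in AP and to 5808 against 10159 CPM in VP. Luminal markers summed to 4447 against 2933 CPM in AP and to 3825 against 2432 CPM in VP. Hematopoietic markers summed to 304 against 869.9 CPM in AP and to 875 against 209 CPM in VP. The part of these markers was not tested.

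In AP RFP+ luminal-like cells Fgfr2, Fgfr3 and Spry1 differed. Spry1 was at 31.3 (25.7 to 37.9) CPM in castrated and 3.67 (1.35 to 8.00) CPM in intact AP RFP+ luminal-like cells of run 2, an 8.53-fold ratio. That intact value was the lowest of 3, the other runs being at 23.5 and 12.5 CPM, so the size of this ratio rests on the intact pool of run 2. Fgfr3 was at 4.44 against 23.3 CPM and Fgfr2 at 14.8 against 33.1 CPM, both lower after castration, while Dusp6 was at 50.3 against 48.99 CPM. These were 3 of 6 members with enough UMIs (13.5% of all genes). In VP RFP+ luminal-like cells 4 of 4 members were higher, namely Spry1 (68.6 against 6.21 CPM), Fgfr2 (21.0 against 2.07 CPM), Dusp6 (21.8 against 2.53 CPM) and Spry2 (12.7 against 2.07 CPM). There, 41.6% of all 8838 genes passed, 40% of all being higher, and the median log2 ratio of all genes was 0.89, against 3.22 for the 4 members. AP RFP- luminal-like cells had 0 of 2 members past the rule (11.9% of all genes), with Spry1 at 27.6 against 17.2 CPM, and DLP RFP- luminal-like cells had no member with enough UMIs (7.3% of all genes).

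The luminal populations compared were not the same ones. In castrated mice 83.1% of AP RFP+ and 84.8% of VP RFP+ luminal-like cells were Lum-E/F, while intact AP RFP+ cells were mostly Lum-D and intact VP RFP+ cells mostly Lum-A. Lum-E/F cells of run 2 (441 cells) held Spry1 at 50.9, Dusp6 at 44.0, Fgfr2 at 17.8 and Fgfr3 at 1.13 CPM. The 30 Lum-D cells of castrated mice held both receptors at 49.7 CPM, beside 45.1 and 40.5 CPM for Fgfr2 and Fgfr3 in intact Lum-D cells of the same run. Treatment and luminal population cannot be told apart in these sums. In run 1, whose castrated lobes were pooled, 11 luminal-like cells held Spry1 at 137 CPM and Fgfr2 at 68.3 CPM.

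Within castrated AP luminal-like cells the gates differed in Fgfr2 (14.8 CPM in RFP+ against 4.25 CPM in RFP- cells) and Dusp6 (50.3 against 7.43 CPM), 2 of 5 members with enough UMIs, where 10.6% of all genes passed. In DLP 0 of 5 passed (24.2%). Of the other FGF genes, 7 of 42 were lower and 0 higher in castrated AP RFP+ basal-like cells (8.45% of all genes passed). In VP RFP+ luminal-like cells 20 of 42 were higher, where 40% of all genes were higher. In AP RFP+ luminal-like cells 7 of 45 were higher and 3 lower (13.5% of all genes passed). Among the higher was the ERK-directed phosphatase gene Dusp5, at 187 against 11.6 CPM.

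**Figure D3:**
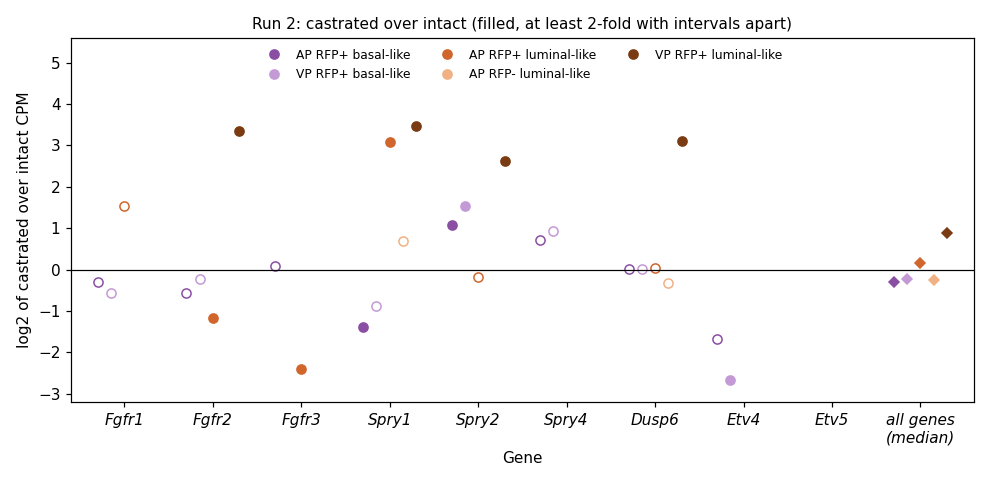
Log2 ratio of castrated over intact CPM in run 2 (vertical axis) for each member with at least 20 UMIs in 1 of the sums, by population, with filled circles where the ratio was at least 2-fold and the Poisson intervals were apart, and diamonds for the median of all genes. Dusp6 was near 0 in both basal-like populations and in AP RFP+ luminal-like cells, and Spry1 was at 3.09 and 3.46 in the RFP+ luminal-like cells of AP and VP.

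In the explants Etv4 and Etv5 were the members with the largest difference between days 0 and 1, and Fgfr1 was higher at each later day. In prostatic-like cells (463, 433, 935 and 1962 cells) Etv4 was at 17.5 CPM on day 0 (95% Poisson interval 15.2 to 20.1), 105 on day 1, 158 on day 3 and 104 on day 6. Etv5 took the same course at a lower level, with 3.47, 19.95, 23.0 and 18.2 CPM. Both had their highest value on day 3. Fgfr1 was at 14.1, 28.4, 48.3 and 72.8 CPM. Dusp6 was at 85.5, 141, 139 and 203 CPM, with intervals that overlapped between days 1 and 3. The Sprouty genes were at 26.0, 31.8, 45.2 and 60.0 CPM for Spry1, at 8.38, 13.0, 18.7 and 18.04 CPM for Spry4 and at 15.9, 17.2, 19.5 and 25.1 CPM for Spry2. Of the other receptors, Fgfr2 lay between 106 and 131 CPM on all 4 days and Fgfr3 was at 34.1, 20.5, 12.7 and 16.2 CPM.

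By the rule of size, 3 of 9 members were higher on day 1 than on day 0 (5.42% of all genes passed, 2.95% higher). They were Etv4 (6.00-fold), Etv5 (5.75-fold) and Fgfr1 (2.01-fold). From day 1 to day 3 and from day 3 to day 6, 0 of 9 passed (5.98% and 3.5% of all genes). Between days 0 and 6 the count was 6 higher and 1 lower (16.5% of all genes, 6.8% higher). The 6 were Etv4 (5.94-fold), Etv5 (5.26-fold), Fgfr1 (5.15-fold), Dusp6 (2.38-fold), Spry1 (2.31-fold) and Spry4 (2.15-fold), and Fgfr3 was the one lower, at 0.476 of its day 0 level. With 1 pool a day these are values of those pools. Litters, sexes, time and, against day 0, culture in dihydrotestosterone cannot be told apart.

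The cells called prostatic-like changed in kind between days. On day 0, 94.6% of them belonged to a subcluster (438 cells) led by Uchl1, Akap12, Upk1a and Isl1, which scored highest on the urothelium markers and had 1 of them, Upk2, among its 10 leading genes. On day 1, 81.5% belonged to a subcluster led by Ftl1-ps1, Clca3a2 and Lgr5, which scored highest on the mesonephric markers. The 7 urothelium markers summed to 674, 593, 262 and 192 CPM in prostatic-like cells of days 0, 1, 3 and 6, against 4681 to 6056 CPM in urothelium-like cells, and the 9 prostatic markers to 10180, 8741, 8287 and 9795 CPM. Their part in the day differences was not tested. Counting all cells of a day, with no clusters, Etv4 was at 20.7, 78.0, 127 and 100.4 CPM, and Etv5 at 6.66, 17.5, 19.5 and 19.1 CPM. Both passed on day 1 against day 0 (3.78-fold and 2.62-fold), while Fgfr1, at 25.8 against 18.5 CPM, did not (6.25% of all genes). On day 6 against day 0 Etv4 (4.86-fold), Fgfr1 (3.35-fold), Etv5 (2.88-fold) and Dusp6 (2.55-fold) passed (17%), and Spry1, Spry4 and Fgfr3 did not.

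**Figure D4:**
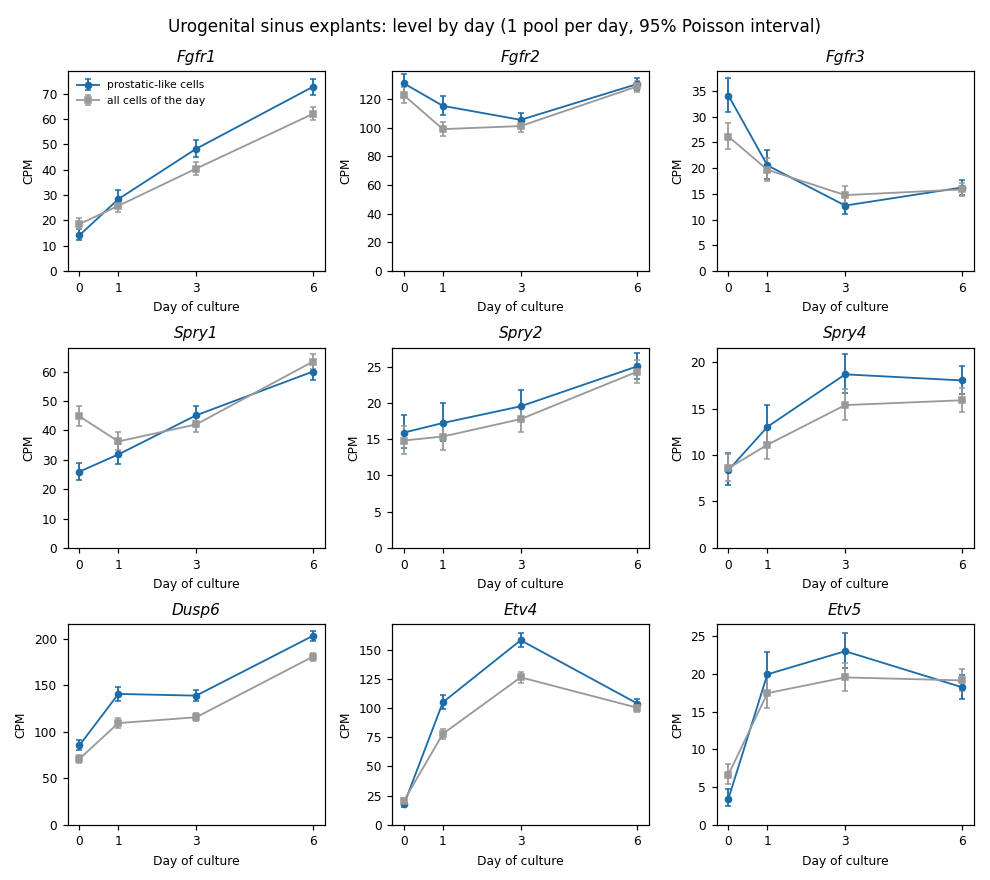
Level of each member in CPM (vertical axis, from 0) by day of explant culture (horizontal axis), in prostatic-like cells (blue) and in all cells of the day (grey), with bars for the 95% Poisson interval of 1 pool a day. Etv4 and Etv5 were highest on day 3, at 158 and 23.0 CPM in prostatic-like cells, Fgfr1 was higher at each later day, and Fgfr2 stayed between 99.1 and 131 CPM in both sets of cells.

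Within a day the subclusters differed in most members. On day 3 a subcluster of 423 cells led by Mest, Krt23 and Gpx2 held Etv4 at 258 CPM, and one of 389 cells led by Ly6a, Fxyd4 and S100a6 held it at 42.1 CPM. Etv4 was itself among the 10 leading genes of the first. Alongside, Etv5 was at 31.3 against 10.3 CPM, Spry1 at 59.9 against 21.4 CPM, Spry4 at 25.7 against 9.49 CPM and Fgfr1 at 59.8 against 29.3 CPM. Fgfr3 was reversed, at 5.34 against 23.3 CPM, and Fgfr2 was at 79.3 against 152 CPM. Dusp6 was at 148 against 139 CPM and Spry2 at 18.2 against 21.2 CPM. On day 3, 6 of 9 members passed the rule of size between these subclusters (12.4% of all genes), a description since the clusters came from the same cells.

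On day 6 the largest subcluster, 987 cells led by Kcne1l, Ramp1 and Lbp, was set beside the 569 cells led by Ly6a, Fxyd4 and S100a6. Etv4 was at 149 against 19.3 CPM, Spry1 at 77.5 against 21.4 CPM, Spry4 at 23.9 against 7.44 CPM, Fgfr1 at 88.6 against 41.6 CPM and Etv5 at 21.2 against 9.51 CPM. Fgfr3 was again reversed, at 9.23 against 35.8 CPM, and Dusp6 was at 221 against 173 CPM. The 6 members that passed were those of day 3, against 13.3% of all genes. In the Ly6a and Fxyd4 subcluster Etv4 was at 42.1 CPM on day 3 and 19.3 CPM on day 6, while Fgfr1 was at 29.3 and 41.6 CPM. The subcluster led by Mest and Krt23 held Etv4 at 258 CPM on day 3 and 176 CPM on day 6 (116 cells). The Kcne1l and Ramp1 subcluster went the other way, with 113 (89.7 to 139.6) CPM on day 3 (43 cells) and 149 (142.9 to 155.0) CPM on day 6.

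**Figure D5:**
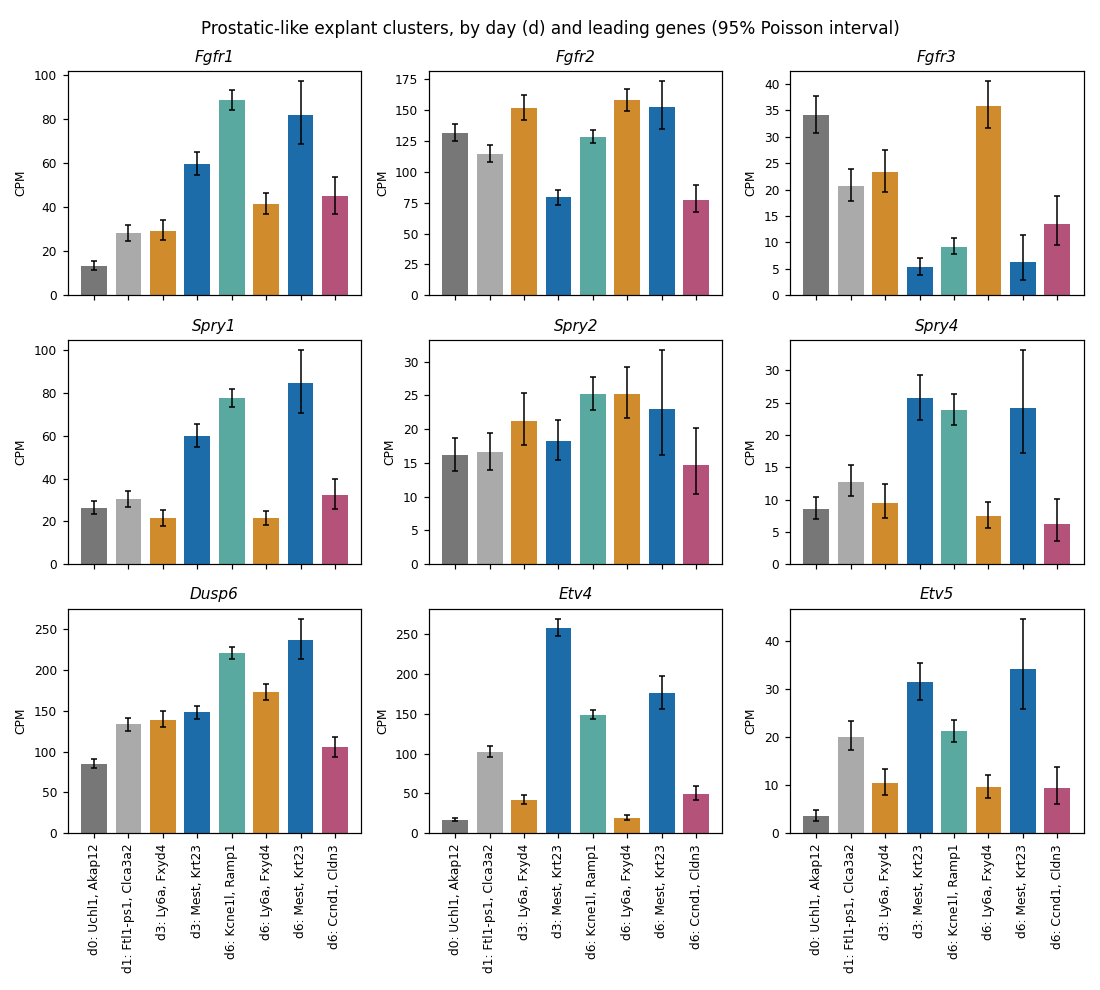
Level of each member in CPM (vertical axis, from 0, with bars for the 95% Poisson interval) in prostatic-like subclusters with at least 100 cells of a day, named on the horizontal axis by day and leading genes. Etv4, Etv5, Spry1 and Spry4 were low in the Ly6a and Fxyd4 subcluster of days 3 and 6, where Fgfr3 was high, at 23.3 and 35.8 CPM.

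The other pathway genes were counted by the same rule. On day 1 against day 0, 3 of 62 were higher, namely Fgfbp1, Etv1 and Hs6st2, and 0 lower (5.42% of all genes passed, 2.95% higher). On day 3 against day 1, 8 of 61 were lower and 1 was higher, the cyclin D1 gene Ccnd1, at 336 against 120.5 CPM (5.98% of all genes passed). On day 6 against day 0, 7 of 62 were higher and 10 lower (16.5% of all genes passed, 6.8% higher). Fgfbp1, which encodes a carrier protein that releases FGFs from the matrix, was at 219 against 22.5 CPM.

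Over 30 intact adult sums of at least 20 cells, levels of the readouts were compared by Spearman coefficients, given without a test because the sums share libraries. Spry4 and Dusp6 had a coefficient of 0.94, Spry4 and Etv4 0.90, and Dusp6 and Etv4 0.88. Within the 15 basal-like sums the same pairs had 0.81, 0.40 and 0.33, and within the 15 luminal-like sums 0.70, 0.74 and 0.71. Spry1 and Dusp6 had 0.74 over all sums, -0.057 within basal-like and 0 within luminal-like sums. Among 4885 genes, the one most like Dusp6 was Rap2b (0.97), like Spry4 Dusp7 (0.95), like Etv4 Cdo1 (0.94), like Fgfr1 Ehd2 (0.97), like Fgfr2 Cnbp (0.96), like Fgfr3 Car8 (0.94), like Spry1 Map1lc3a (0.96), like Spry2 Slco2a1 (0.93) and like Etv5 Zfp326 (0.85).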

How the data were processed

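EPCAM+ cells were profiled with 10x 3′ v3 chemistry and MULTI-seq lobe or day barcodes. The deposited files hold raw UMI counts per gene and cell, together with barcode counts. The authors made them with Cell Ranger 3.1.0 on mm10 (GRCm38) and analysed them with Seurat 3.1.5. The libraries of runs 1, 2 and 3 and of the explants held 35051876, 86381807, 40087244 and 121090404 UMIs over all cells. Intervals and floors cover counting error only.

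Adult cells with more than 750 and fewer than 7500 detected genes and under 10% mitochondrial UMIs were kept (the study prints this limit as UMIs, which is an alternative here, since it would remove most cells), and explant cells with over 1000 genes and under 7.5%. Cells with 1 barcode above the study's thresholds were assigned to a lobe, gate and treatment or to a day, and the others were left out. For the VP barcodes of run 3 the study lists a barcode sequence and an oligo that differ, and the assignment follows the named barcode. Clusters (Seurat 5.3.0, R 4.3.3, seed 1) were made without the FGF genes and named from marker lists. Scrublet (scanpy 1.11.5) called 14, 20, 3 and 0 doublets, under 0.5% in run 3 and in the explants, so no doublet was removed in the main analysis, and an alternative removed the highest 6% of scores. Within each run, UMIs were added over the cells of every population that held 10 or more cells, and these totals were tested with edgeR 4.0.16 (TMM, filterByExpr, quasi-likelihood F test, Benjamini-Hochberg over all genes tested, threshold 0.05). A run is a separate pool of mice. Same-numbered sums came from the same mice, and their deviations from the group means correlated at 0.034 to 0.65, so the run was also fitted as a block. Castrated and explant sums had no replicate, and members were named at a 2-fold ratio with 95% Poisson intervals apart and at least 20 UMIs in the larger sum. All 9 members are named, and of the other FGF list at most the 4 largest changes past the threshold. On simulated counts for the AP RFP+ basal-like against luminal-like comparison (9572 genes, 200 changed) 90% of 4-fold and 21% of 2-fold changes were recovered, and 9.76% of calls were false. For the AP basal-like gate comparison (8621 genes) 79% and 12% were recovered, and for the AP minus VP difference of gate effects (9631 genes) 33% and 3%, with 12.2% of calls false. The members and lists were chosen with earlier results of these data known. Intact DLP RFP+ barcodes of runs 1 and 2 failed, and those cells were not analysed here. DESeq2 1.42.0, other scalings, filters and clusterings and left-out runs were alternatives. The values of 1 gene counted among the other pathway genes are not reported here.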

Additional observations from a re-analysis of the deposited data

Results flagged for a closer look

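A difference between intact AP and VP in the fitted RFP gate effect was called for Fgfr2. The call rests on AP cells, since Fgfr2 was too sparse in VP for a gate effect to be read there. In luminal-like cells Fgfr2 was higher in RFP+ than in RFP- cells of AP in 3 of 3 runs. The difference between the AP and VP effects was 3.92 on the log2 scale (edgeR, adjusted p = 0.0038), and was no longer called without run 2 (adjusted p = 0.23) or without run 3 (adjusted p = 0.063). VP RFP+ luminal-like cells held Fgfr2 at 0.710 to 2.07 CPM, under the 2.40 and 5.93 CPM (1 and 19 UMIs) of hematopoietic-like cells in runs 1 and 2, and its VP sums held 2 to 18 UMIs. Fgfr2 passed the filter on low counts through AP cells and not in VP alone, and no direction is read in VP.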

How the results depend on the processing

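Some sums were small. AP RFP- luminal-like sums held as few as 45 cells and VP RFP- sums as few as 10, and castrated and explant values were single pools. Of 621 member log2 fold changes recomputed under alternatives, 570 kept direction and side of the threshold, 18 lost and 11 gained a call and 22 changed sign, and of 345 ratios 30 moved beyond their counting interval. The cause of a changed call was not tested. A limit of 7500 UMIs per cell removed most adult cells and left fewer genes testable by edgeR. Castrated basal-like cells of run 2, with a median of 5075 UMIs per cell, mostly stayed under this limit.

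With fewer than 7500 UMIs per cell, members called fell to 2 (2 tested) in AP RFP+ basal-like against luminal-like cells, 5 over all lobes, 0 for the AP luminal gate (0 tested) and 0 in castrated against intact AP RFP+ basal-like, AP RFP+ luminal-like and VP RFP+ basal-like cells. With library size only, 1 was called in RFP- luminal-like VP against AP. The AP luminal gate had 2 to 4 with 1 run left out. For the AP minus VP gate effect the 1 called became 2 with DESeq2, RLE factors, at least 20 cells per sum, library size only or the run as a replicate block, 4 with no filter, and 0 to 2 with 1 run left out. Castrated AP RFP+ basal-like cells had 1 by per-cell mean CPM, VP RFP+ basal-like cells 1 after centring, and day 6 against day 0 had 4 over all cells. The replicate block changed no other member's call than those given for Spry1 and Dusp6.

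Each value that changed sign was uncalled on the changed side. With 1 run left out, Fgfr3 ranged from -0.057 to 1.30 over all lobes. Spry1 ranged from -0.21 to 0.92 and Spry2 from -0.29 to 0.17 for the VP luminal gate. The AP basal gate gave Spry1 -0.13 to 0.17, Spry2 -0.25 to 0.13, Spry4 -0.12 to 0.41 and Dusp6 -0.059 to 0.38. Dusp6 ranged from -1.25 to 0.087 for DLP against AP and from -0.19 to 0.36 for basal-like VP against AP, where Fgfr3 ranged from -0.37 to 0.50. The difference of gate effects ranged from -2.27 to 5.73 for Fgfr3 and from -0.59 to 3.94 for Dusp6. Under 7500 UMIs they were Fgfr1 (-0.052), Fgfr2 (-0.083) and Spry1 (0.093) for the AP basal gate and Fgfr2 (0.28) for basal-like VP against AP. The block gave Spry2 -0.055 for the VP luminal gate. Dusp6 was -0.47 by library size and -1.83 with high Scrublet scores removed for RFP- luminal-like VP against AP, and -0.067 unfiltered and -0.011 by Scrublet for basal-like VP against AP.

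Counts over all genes moved more. AP RFP+ compartments gave 2786 calls (1679 and 1605 without runs 2 and 3, 693 under 7500 UMIs), all lobes 5408 (2772, 2766, 1583), the AP luminal gate 2232 (769, 1456, 287) and the VP luminal gate 26 (65 by DESeq2, 201 unfiltered, 139 with the block, 42 by Scrublet, and 66, 0 and 0 without runs 1, 2 and 3). The AP basal gate gave 0 (6 unfiltered), VP against AP luminal-like 1162 (1809 unfiltered, 340 and 581 without runs 2 and 3, 5023 by library size), DLP against AP 62 (135 by DESeq2, 358 unfiltered, 572 with the block, 2 and 9 without runs 2 and 3, 1 under 7500 UMIs), basal-like VP against AP 21 (79, 243 and 479 by the same alternatives, 5, 0 and 6 without each run, 2 under 7500 UMIs) and the difference of gate effects 543 (851 unfiltered, 1275 with the block, 6 and 74 without runs 2 and 3, 351 by library size). Library size changed the split of higher and lower calls from 2718 and 2690 to 3993 and 1060 over all lobes, with a median shift of 0.56, from 1195 and 1037 to 1204 and 553 for the AP luminal gate, from 575 to 4839 lower among all calls for VP against AP, and from 322 and 221 to 279 and 72 for the difference of gate effects.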

Other observations

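Cells outside the prostatic class of the explants and the basal-like and luminal-like compartments of adults also held members. Mesonephric-like explant cells (199, 97, 92 and 280 cells) held Etv4 at 32.7, 42.4, 48.2 and 164 CPM on days 0, 1, 3 and 6, and Dusp6 at 31.1, 33.1, 46.9 and 120.3 CPM, with the highest value of both on day 6, when Etv4 in prostatic-like cells was under its day 3 level. These cells changed in kind between days. Their 7 mesonephric markers summed to 1562, 2831, 3752 and 1036 CPM, and the 9 prostatic markers to 2829, 2794, 4604 and 5035 CPM. The part of these markers was not tested. Urothelium-like cells held Etv4 at 1.498, 1.69 and 8.41 CPM on days 1, 3 and 6, and Dusp6 at 28.5, 43.1 and 68.3 CPM. In the adult libraries the few mesonephric-like cells had Fgfr2 at 83.4 CPM in run 2 (15 cells) and 60.9 CPM in run 3 (14 cells), with Etv4 and Fgfr3 at 0 in both runs. Fibroblast-like cells of runs 1, 2 and 3 (50, 39 and 23 cells) held Spry1 at 135, 80.7 and 64.4 CPM. They held Fgfr1 at 98.2, 69.1 and 109 CPM. Endothelial-like cells of runs 1 and 2 (47 and 13 cells) held Dusp6 at 160 and 220 CPM. Each explant value is from 1 pool, each adult value is from 1 run with its lobes, gates and treatments together, and no test was made.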
